A study of Mus musculus with 8 samples.

Results

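Hand1, Hand2, Twist1, Twist2, Tcf21, Nr2f1 and Nr2f2 are transcription factor genes grouped here as stromal factors. The group name is not a result, since Nr2f1 was higher in brain and Hand1 had too few counts to test. All 7 were found by their symbol among the 19884 genes of the deposited count table. They were followed across 4 uterus and 4 brain libraries, each from an untreated C57BL/6J wild-type female of 6 to 10 weeks that had been mated with a fertile male. All animals were taken on day 4 of gestation, counting the day of the vaginal plug as day 1, and pregnancy was established by blastocysts flushed from the uterus. Whole organs were used without pooling, so each library mixes the RNA of many cell types, and a lower value may come from fewer cells of a type or from less RNA per cell, which cannot be told apart here. The labels do not say whether the uterus and brain of a given number came from the same mouse.

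HAND, TWIST and TCF21 proteins belong to the basic helix-loop-helix (bHLH) family. They bind short DNA elements called E-boxes as dimers, usually with a broadly expressed E protein as partner, while ID proteins, which lack the DNA-binding region, take up the E proteins. COUP-TFI and COUP-TFII, the products of Nr2f1 and Nr2f2, are orphan members of the nuclear receptor family that bind repeats of the AGGTCA element. In mouse uterine stroma, Hand2 is induced by progesterone and lowers FGF ligand production, and Nr2f2 is induced by Indian hedgehog from the epithelium and acts upstream of Bmp2. In brain, Nr2f1 is known for patterning the cortex and Nr2f2 for interneurons and for venous vessels.

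The sequence before the transcription start is shown for Hand2, which had reads in uterus and 0 in brain, for Twist1 and Twist2, which were higher in uterus as a pair, and for Nr2f2, whose paralog went the other way. The windows are the 250 bases before each RefSeq start on GRCm38.p6, 5′ to 3′ on the gene's strand. They lie at chr8:57320733-57320982 (plus strand) for Hand2, chr12:33957421-33957670 (plus) for Twist1, chr1:91801211-91801460 (plus) for Twist2 and chr7:70366747-70366996 (minus) for Nr2f2. Capitals mark matches on either strand to the E-box CANNTG, the COUP-TF element AGGTCA, the CCAAT box CCAAT and the TATA box TATAAA.
Hand2: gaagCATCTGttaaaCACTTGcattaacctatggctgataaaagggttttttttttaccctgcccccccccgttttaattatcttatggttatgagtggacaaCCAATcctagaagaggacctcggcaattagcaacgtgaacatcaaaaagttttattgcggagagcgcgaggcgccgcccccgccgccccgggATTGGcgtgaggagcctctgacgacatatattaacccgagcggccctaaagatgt
Twist1: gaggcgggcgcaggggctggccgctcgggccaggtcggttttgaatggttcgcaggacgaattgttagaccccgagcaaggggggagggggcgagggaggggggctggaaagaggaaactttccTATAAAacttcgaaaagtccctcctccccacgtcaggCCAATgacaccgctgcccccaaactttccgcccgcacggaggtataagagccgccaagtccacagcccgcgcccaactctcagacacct
Twist2: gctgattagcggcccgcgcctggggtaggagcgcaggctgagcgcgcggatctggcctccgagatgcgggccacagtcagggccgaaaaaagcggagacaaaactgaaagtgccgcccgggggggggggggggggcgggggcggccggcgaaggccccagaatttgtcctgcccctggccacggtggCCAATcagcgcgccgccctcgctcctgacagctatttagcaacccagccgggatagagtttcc
Nr2f2: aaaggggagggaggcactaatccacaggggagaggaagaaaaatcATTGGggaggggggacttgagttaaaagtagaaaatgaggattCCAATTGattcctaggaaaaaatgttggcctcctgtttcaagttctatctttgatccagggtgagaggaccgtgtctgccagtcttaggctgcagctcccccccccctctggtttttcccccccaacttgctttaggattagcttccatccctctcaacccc
Over the 7 windows of 6 factors, CCAAT boxes occurred in these 4 and in neither the Tcf21 window nor the 2 Nr2f1 windows, and the element was present in 33.9% of 32841 RefSeq promoter windows of the same length. In Hand2 the boxes started 147 and 55 bases before the start, in Twist1 89 bases, in Twist2 63 bases, and in Nr2f2 205 and 162 bases. E-boxes, present in 66.2% of all windows, stood at 246 and 235 bases before the start of Hand2 and at 161 bases in Nr2f2, where the element overlaps a CCAAT box, and 137 and 31 bases before the second Nr2f1 start. The 2 Twist windows did not hold these letters. TATAAA (12.4% of all windows) occurred in Twist1 at 126 bases, and AGGTCA (14.0%) in none of the 7 windows. The ratio of observed to expected CpG was 0.99 for Hand2, 0.74 for Twist1 and 0.79 for Twist2, against 0.06 for Nr2f2 and a median of 0.374 over all windows. The Tcf21 window had a CpG ratio of 0.29 and none of the 4 motifs, and the Nr2f1 windows had ratios of 0.74 and 0.21. RefSeq windows were found by symbol for 6 of the 7 factors, all but Hand1. The RefSeq start lay at the 5′ end of the GENCODE gene for Hand2, Twist1 and Twist2. It lay 31 bases from that end for Tcf21, 11 for Nr2f2, and 884 and 3308 for Nr2f1. The 2 Nr2f1 windows lie wholly within its own annotated exons. Starts of single GENCODE transcripts were not compared.

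Of the 7 factors, 5 were higher in uterus, 1 (Nr2f1) was lower in uterus, and 1 (Hand1) had too few counts to test. Values below are counts per 1000000 (CPM) on library sizes scaled by the trimmed mean of M-values (TMM), and changes are log2 fold changes of uterus over brain ± SE from the edgeR quasi-likelihood test. Of 16074 genes tested, 87.0% differed between the organs, 43.5% were higher in uterus and 43.6% lower at an adjusted p under 0.05, so a call between organs this different is common, and the sizes carry more than the count. Against a change of at least 2-fold, 23.5% of tested genes were higher in uterus and 25.8% lower, and the 6 tested factors kept the same 5 and 1 split. For each of the 6, the 4 libraries of the higher organ all lay above the 4 of the other, which held for 42.0% of tested genes toward uterus and 42.0% toward brain. The median log2 fold change of the 6 was 4.75, against 0.012 over all genes tested.

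**Figure D1:**
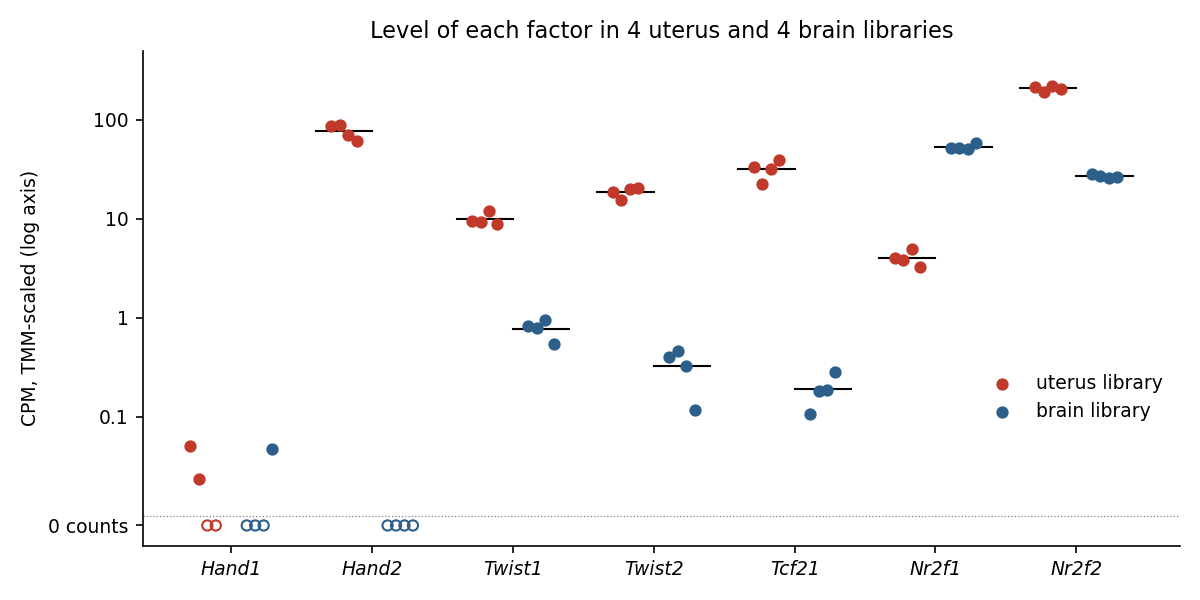
Level of each factor in CPM on a log axis, with 1 point per library, uterus in red left of brain in blue, and black lines at the mean of 4 libraries (not drawn for Hand1). Open circles under the dotted line are libraries with 0 counts. Hand2 lay at 60.9 to 88.0 CPM in uterus and at 0 counts in every brain library, and Nr2f1 is the factor whose brain points lie above its uterus points.

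Hand2 encodes a bHLH factor of heart, limb and uterine stroma (ENSMUSG00000038193, chromosome 8, 57320983 to 57324633, plus strand, GRCm38). It stood at 87.5, 88.0, 70.4 and 60.9 CPM in uterus libraries 1 to 4, from 3475, 3744, 2777 and 2613 counts, against 0 counts in each brain library. Uterus libraries 1 and 2 were alike and libraries 3 and 4 lower, and the organs did not overlap. Set against 3 counts over the 4 brain libraries together, the limit that a count of 0 allows, the uterine mean of 76.7 ± 13.3 CPM (SD, n = 4) was at least 4244-fold higher (edgeR adjusted p = 2.4e-08). The antisense gene Hand2os1 shares 461 bases of exon with Hand2, and without a stated strand setting its part in these counts cannot be told apart. Its closest relative Hand1, a factor of heart, trophoblast and gut (ENSMUSG00000037335, chromosome 11, 57828705 to 57832818), had 2, 1, 0 and 0 counts in uterus and 0, 0, 0 and 2 in brain. Both organs were at or under the limit of 3 counts, 0.0182 CPM in uterus and 0.0181 CPM in brain, so no fold is given.

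The pair of TWIST genes rose together in uterus but not by the same amount. Twist1, a bHLH factor of neural crest and limb mesenchyme (ENSMUSG00000035799, chromosome 12, 33957671 to 33959829), stood at 9.44, 9.26, 11.9 and 8.93 CPM in uterus against 0.837, 0.784, 0.947 and 0.544 CPM in brain. Uterus library 3 was the highest of its group and brain library 4 the lowest of its own. The change was 3.66 ± 0.19 (adjusted p = 2.2e-08). Twist2, also called Dermo1 and known from dermis (ENSMUSG00000007805, chromosome 1, 91801461 to 91848028), stood at 18.7, 15.7, 19.9 and 20.6 CPM in uterus against 0.405, 0.461, 0.323 and 0.118 CPM in brain. The brain values rest on 15, 20, 14 and 5 counts, with library 4 the lowest, and the organs did not overlap. Twist2 changed by 5.83 ± 0.26 (adjusted p = 8.0e-09). The antisense gene Gm29100 shares 1477 bases of exon with Twist2, so the same limit on strand holds.

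Tcf21, a bHLH factor of fibroblast and visceral mesenchyme also called Pod1 or capsulin (ENSMUSG00000045680, chromosome 10, 22817281 to 22820174), stood at 33.6, 22.7, 31.6 and 39.6 CPM in uterus. In brain it stood at 0.108, 0.184, 0.185 and 0.284 CPM, from 4, 8, 8 and 12 counts. Uterus library 2 was the lowest and library 4 the highest of their group, a spread of 22.0% of the mean (SD over mean). The change was 7.35 ± 0.26 (adjusted p = 1.3e-09).

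The COUP-TF genes went in opposite directions. Nr2f2 (ENSMUSG00000030551, chromosome 7, 70351944 to 70366735) was the factor with the most counts, at 217, 189, 221 and 207 CPM in uterus against 28.2, 27.3, 25.6 and 26.4 CPM in brain. The libraries of each organ lay close together, and the change was 2.95 ± 0.06 (adjusted p = 3.7e-11). Nr2f1 (ENSMUSG00000069171, chromosome 13, 78188973 to 78199757) stood at 4.05, 3.86, 4.97 and 3.24 CPM in uterus against 52.3, 52.6, 50.6 and 57.8 CPM in brain. It was 13.3-fold higher in brain, with a log2 fold change of -3.73 ± 0.12 (adjusted p = 5.6e-10). Nr2f2 in brain, at 26.9 ± 1.10 CPM, exceeded the brain means of Twist1, Twist2 and Tcf21 (0.778, 0.327 and 0.190 CPM) and had 4455 counts over the 4 libraries.

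The balance within each pair of paralogs was compared inside a library, where scaling cancels. The log2 ratio of Nr2f1 to Nr2f2 counts was -5.74, -5.62, -5.47 and -6.00 in uterus and 0.89, 0.94, 0.98 and 1.13 in brain. The difference was -6.69. Its p of 0.0286 in an exact two-sided permutation test over the 8 libraries is the smallest that 4 against 4 can give. Each gene alone already separated the organs, in opposite directions, so this p was fixed in advance and adds no support. Per kilobase of annotated exon, Nr2f2 made up 96.8 ± 0.460% of the COUP-TF level in uterus and 23.0 ± 1.24% in brain (SD, n = 4). Their summed level was 212 ± 14.3 CPM in uterus and 80.2 ± 3.26 CPM in brain. A ratio was to be tested only with at least 10 counts of both genes in every library. Twist2 had fewer than 10 counts in brain library 4, so the TWIST balance was computed with 0.5 added to each count, outside that rule. The log2 ratio of Twist1 to Twist2 was then -0.99, -0.76, -0.74 and -1.21 in uterus and 1.02, 0.75, 1.52 and 2.10 in brain. The difference was -2.27, with an exact permutation p of 0.0286, again the smallest possible. Adjustment over 3 ratios, which include Hand1 to Hand2, left it unchanged because all 3 were at that value. Since the TWIST ratio failed the count rule, its p is not read as support. Per kilobase, Twist2 made up 49.3 ± 3.78% of the TWIST level in uterus and 17.0 ± 5.76% in brain. No balance is read for Hand1 and Hand2, since both were at or under the count limit in brain.

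**Figure D2:**
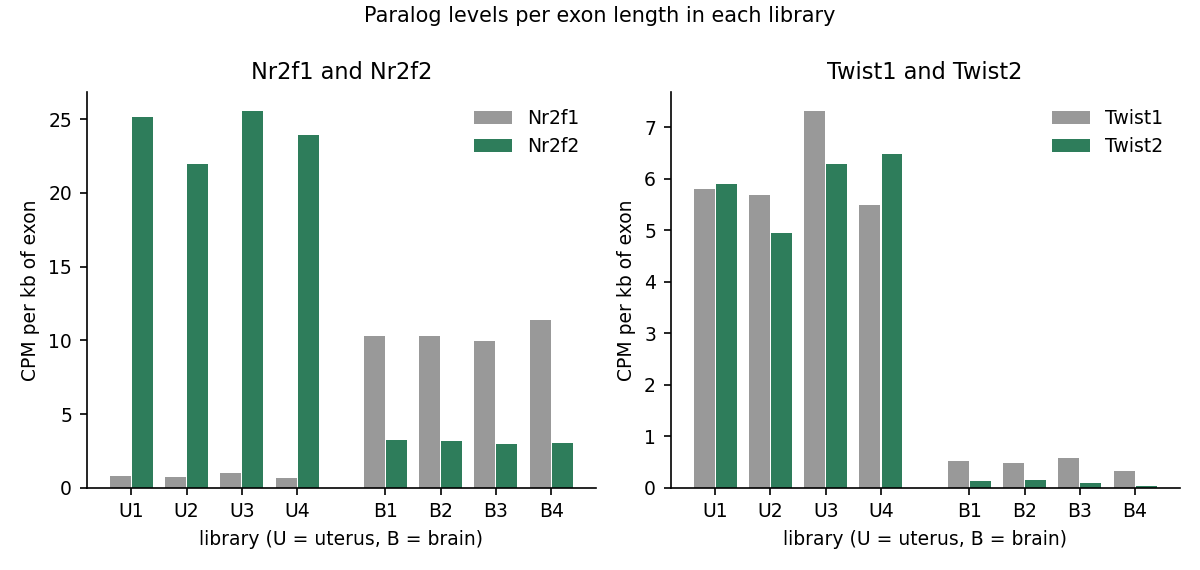
CPM per kilobase of annotated exon for Nr2f1 (grey) and Nr2f2 (green) on the left and for Twist1 (grey) and Twist2 (green) on the right, with 1 pair of bars per library, uterus (U) left of brain (B). Nr2f2 is the taller bar in every uterus library and Nr2f1 in every brain library, while the TWIST bars are near equal in uterus.

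In uterus the order of levels per kilobase of exon was Hand2 (32.6 ± 5.67 CPM per kb), Nr2f2 (24.2 ± 1.62), Tcf21 (13.6 ± 2.98), Twist1 (6.07 ± 0.842), Twist2 (5.90 ± 0.683), Nr2f1 (0.791 ± 0.141) and Hand1. Hand2 lay above 92.1% of tested genes on this scale and Nr2f2 above 88.5%, while Nr2f1 lay above 21.5%. The Twist1 and Twist2 ranges overlapped, and the other neighbours did not. In brain the order was Nr2f1 (10.5 ± 0.612 CPM per kb, above 68.0% of tested genes), Nr2f2 (3.12 ± 0.128, above 38.3%), Twist1 (0.478 ± 0.104), Twist2 (0.103 ± 0.0473), Tcf21 (0.0810 ± 0.0307), Hand1 and Hand2. There the ranges of Twist2 and Tcf21 overlapped, as did those of Hand1 and Hand2, with 2 and 0 counts. The order at the top of the uterus depends on the length used. With the longest annotated transcript in place of all exons, an alternative added after the data were seen, Nr2f2 came to 49.3 and Hand2 to 32.6 CPM per kb, and Twist2 to 7.42 and Twist1 to 6.07.

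The factors did not all vary together among the 4 uteri. On the log2 scale, relative to the uterine mean, Hand2 deviated by 0.21, 0.22, -0.11 and -0.32 in libraries 1 to 4 and Tcf21 by 0.10, -0.46, 0.02 and 0.34. Hand2 was thus lowest in the library where Tcf21 was highest. Twist1 and Nr2f1 both peaked in library 3, at 0.28 and 0.32. Twist2 deviated by 0.01, -0.25, 0.1 and 0.14, and like Tcf21 and Nr2f2 it was lowest in library 2. Nr2f2 moved least, within -0.14 to 0.08. Nr2f1 was lowest in library 4, at -0.29. Beside them, the mean deviation of 7 stromal fibroblast markers was 0.06, -0.09, -0.08 and 0.11. That of 5 mesothelial markers was 0.09, 0.02, 0.46 and -0.58, high in library 3 and low in library 4 as Nr2f1 was. The 7 venous and lymphatic markers (0.15 and -0.18) and the 6 smooth muscle markers (0.11 and -0.18) had the same signs in these libraries. The 5 general endothelial markers were at -0.02 and -0.09. In library 4, Hand2 was lowest and Tcf21 highest. There the 7 epithelial markers stood at 0.19, the 7 meningeal markers at 0.49 and the 5 neuronal markers at 0.57. Their summed levels were 727 to 896, 225 to 279 and 7.98 to 10.9 CPM in uterus. Genes weigh equally in a mean deviation and by level in a sum, so these sums do not show how well the deviations are measured. In uterus Foxd1 had 0 counts, Slc22a6 4 and Nefl 12. Ogn and Aldh1a2 held most of the meningeal sum. In library 4 Ogn was highest (185 CPM) and Aldh1a2 lowest (88.4 CPM). Stmn2, at 6.13 CPM, held most of the neuronal sum. The summed level of the mesothelial markers ran from 154 to 223 CPM in uterus and from 2.93 to 3.37 CPM in brain. Wt1, at a mean of 148 CPM, held most of the uterine sum. The part of any cell type in these differences was not tested.

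**Figure D3:**
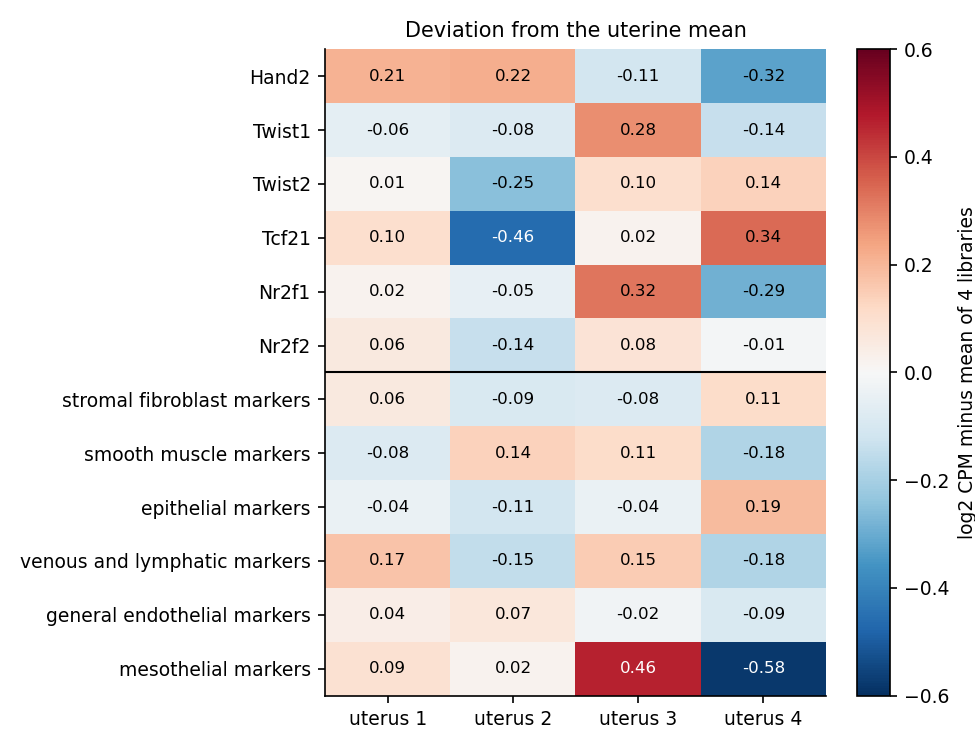
Deviation of log2 CPM from the mean of the 4 uterus libraries for the 6 tested factors (above the line) and, averaged over their genes, for 6 marker lists (below it). Red is above and blue below the mean. Hand2 is lowest and Tcf21 highest in uterus 4, where the mesothelial markers are at -0.58.

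The SD between uteri was 17.4% of the mean for Hand2, 11.6% for Twist2, 22.0% for Tcf21 and 6.69% for Nr2f2. Over 10571 tested genes of at least 10 CPM in uterus the median was 6.94%, with quartiles at 4.53% and 11.0%. Hand2, Twist2 and Tcf21 therefore lay above the upper quartile and Nr2f2 close to the median. Twist1 at 13.9% and Nr2f1 at 17.8% were under 10 CPM in uterus, with 1622 and 660 counts over the 4 libraries. In brain the SD was 5.84% of the mean for Nr2f1 and 4.10% for Nr2f2, against a median of 5.43% over 10610 genes. The rare transcripts spread more there, at 21.9% for Twist1, 37.9% for Tcf21 and 45.9% for Twist2. These rest on 129, 32 and 54 counts over the 4 brain libraries. Counting error is thus part of this spread, and how much was left between animals was not tested. Brain library 4 held the lowest Twist1 and Twist2, at -0.45 and -1.05 log2 from the brain mean, on 23 and 5 counts. It also held the highest Tcf21, at 0.53 on 12 counts, with the 7 meningeal markers at -0.12.

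The genes whose pattern over the 8 libraries was most like each factor were ranked by the root mean square difference of centred log2 CPM, among 12027 named genes of at least 10 CPM in the higher organ. Most of this measure is the difference between organs, so it finds genes with a like fold change. Nearest to Hand2 were the HOX genes Hoxd9 (0.199) and Hoxd11 (0.218), which also had 0 CPM in brain. Nearest to Twist1 were Crispld2 (0.136) and Bcl2l12 (0.163), to Twist2 Pax8 (0.253) and Slc43a1 (0.299), and to Tcf21 Tspan1 (0.182) and the epithelial factor gene Grhl2 (0.216). Nr2f2 was closest to Iqgap1 (0.0485), a scaffold protein gene, and the integrin gene Itgb1 (0.0554). Nr2f1 was closest to Mgat3 (0.0700), a glycosyltransferase gene, and Dnm1 (0.0833), which encodes neuronal dynamin.

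Among 5 tested bHLH relatives of these factors, 3 were higher in uterus, 1 was lower, and Msc, a factor gene of muscle precursors, did not pass (2.23 against 1.41 CPM, edgeR adjusted p = 0.0675), though it did pass when scaled by the upper quartile (0.92) or by library totals (0.92) and without uterus library 3 (0.91). Ptf1a and Ferd3l had too few counts to test. Tcf23, a bHLH factor first described in uterus and other reproductive organs of mouse, stood at 178, 155, 218 and 134 CPM in uterus against 0.459, 0.461, 0.577 and 0.355 CPM in brain (8.52, adjusted p = 1.1e-10). Its uterine counts exceeded those of Hand2 in every library. Scx, a tendon factor gene, was lower in uterus at 1.26 ± 0.290 CPM, against 3.46 ± 0.299 in brain (-1.45). All 9 tested bHLH genes of neurons and glia were lower in uterus, with a median log2 fold change of -11.19, or -10.78 with Olig2 at its bound. Neurod1, a factor gene of differentiating neurons, had 3 counts over the 4 uterus libraries and 75.8 CPM in brain, and the oligodendrocyte factor gene Olig1 had 2 counts and 108 CPM. Olig2, its relative, had 0 counts in uterus and 32.0 ± 0.757 CPM in brain, at least 1756-fold higher there.

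Dimer partners of the bHLH factors were present in both organs. Of 3 E protein and 4 ID genes, 5 were higher in uterus and 2 lower, with a median of 1.02. The E protein genes stood at 105 ± 5.18 CPM in uterus and 28.7 ± 0.719 in brain for Tcf3 (1.87), 154 ± 8.28 and 76.0 ± 3.90 for Tcf12 (1.02), and 358 ± 11.1 and 322 ± 16.3 for Tcf4 (0.16, edgeR adjusted p = 0.020). Tcf4 did not pass under RLE scaling (0.11, edgeR adjusted p = 0.0689) or with a block for replicate number (0.16, edgeR adjusted p = 0.0524). Id1 and Id3 were higher in uterus by 1.86 and 1.74, while Id2 and Id4 were lower, at -0.81 and -1.43. The other NR2 receptor genes and COUP-TF cofactors leaned the other way, with 2 higher and 8 lower in uterus among 10 tested and a median of -1.08. Nr2f6, the third gene of the COUP-TF group, stood at 29.3 ± 1.76 CPM in uterus and 14.4 ± 1.34 in brain (1.03). Bcl11a and Bcl11b, which encode zinc finger proteins that bind COUP-TFs, were lower in uterus by -5.78 and -6.75, and Nr2e1, a receptor gene of neural stem cells, by -7.86. Zfpm2, another cofactor gene that binds COUP-TFII, stood at 3.78 ± 0.353 CPM in uterus and 30.6 ± 1.51 in brain.

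**Figure D4:**
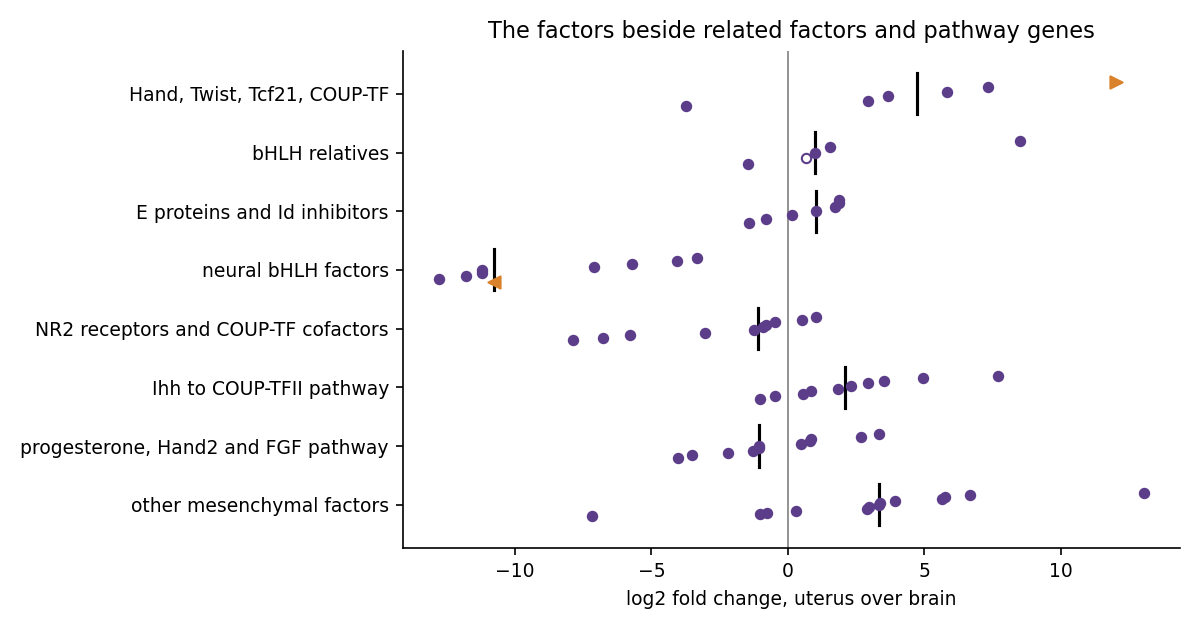
Log2 fold change of uterus over brain for each tested gene of the 7 factors and of 7 related lists, with filled points for genes that passed the edgeR test, an open point for Msc, which did not, and black lines at the median. Triangles are Hand2 and Olig2, which had 0 counts in 1 organ and are drawn at their bounds of 12.05 and -10.78. The neural bHLH factors all lie left of 0, and Nr2f1 is the factor that lies left of 0.

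The list for the Indian hedgehog and Nr2f2 pathway held 10 genes, Bmp2 and Wnt4 among them. Of these 10, 8 were higher in uterus and 2 lower, with a median of 2.09. Ihh, the epithelial ligand, stood at 71.7 ± 14.2 CPM in uterus and 0.338 ± 0.165 in brain. Gli1, a target and effector of hedgehog signalling, stood at 214 ± 14.6 CPM in uterus and 6.90 ± 0.760 in brain (4.95). Bmp2, which acts downstream of Nr2f2 in mouse stroma, was 8.30 ± 1.14 CPM in uterus and 4.60 ± 0.344 in brain (0.85). The hedgehog-binding protein gene Hhip was lower in uterus (-1.03), as was Wnt4 (-0.47), at 11.5 ± 2.46 CPM in uterus and 15.9 ± 2.37 in brain. Wnt4 no longer passed when libraries were scaled by the upper quartile (-0.21) or by their totals (-0.20), nor without uterus library 1 (-0.44), brain library 3 (-0.42) or brain library 4 (-0.40).

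Of 11 genes of the progesterone, Hand2 and FGF pathway, 5 were higher in uterus and 6 lower, with a median of -1.04. Pgr, the progesterone receptor gene, stood at 186, 151, 179 and 263 CPM in uterus against 34.3, 32.0, 31.7 and 23.8 CPM in brain. Uterus library 4 held the highest Pgr and the lowest Hand2. Of the FGF genes named as repressed by Hand2 in mouse stroma, Fgf1 was lower in uterus at 10.2 ± 2.66 CPM, against 115 ± 3.23 in brain (-3.51), Fgf9 by -2.18 and Fgf18 by -1.26, while Fgf2 was higher (0.86). Fgfr3 was lower in uterus (-4.01) and Fgfr2, the FGF receptor gene of epithelium, higher (0.81). All animals were wild type, so these values compare organs and not the presence of Hand2.

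Of 13 other mesenchymal factor genes, 10 were higher in uterus and 3 lower, with a median of 3.34. Meox2 and Snai2 were higher by 6.69 and 5.75. Osr2 stood at 130 ± 11.9 CPM in uterus and had 2 counts in brain. Foxf2, which is expressed in brain pericytes, was lower in uterus at 0.0253 ± 0.0292 CPM, against 3.98 ± 0.498 in brain (-7.18), and Zeb2 by -0.74. Tbx18 was lower in uterus as well (-1.01, edgeR adjusted p = 0.0166), but did not pass when scaled by the upper quartile (-0.76) or by library totals (-0.75).

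Markers of the cell types that could carry these factors stood apart between the organs. The 7 stromal fibroblast markers summed to 10689 to 12795 CPM in uterus and 191 to 194 CPM in brain, and all 7 were higher in uterus. The 6 smooth muscle markers summed to 6019 to 7247 CPM in uterus and 45.3 to 56.1 CPM in brain, the 5 general endothelial markers to 798 to 897 and 85.2 to 94.5 CPM, and the 7 venous and lymphatic markers to 470 to 519 and 122 to 127 CPM, and of the last list Prox1 was lower in uterus. None of the genes of these 4 lists was at 0 in either organ. The 5 blastocyst markers summed to 6.58 to 9.02 CPM in uterus and 11.4 to 16.0 CPM in brain, most of it Eomes (6.89 and 13.4 CPM). In uterus Cdx2 and Pou5f1 had 0 counts and Nanog 9 counts over the 4 libraries. The 10 interneuron markers summed to 28.4 to 41.5 CPM in uterus and 1265 to 1382 CPM in brain, with Sst, Htr3a and Sp8 at 0 in uterus. Of the 10, Lhx6 alone was higher in uterus (18.1 CPM, against 11.7 CPM in brain). The 7 meningeal fibroblast markers summed to 225 to 279 CPM in uterus and 62.4 to 66.9 CPM in brain. Aldh1a2 and Ogn, at 97.8 and 139 CPM, held most of the uterine sum, while Foxc1, Foxd1, Slc6a13, Slc22a6 and Crabp2 were lower in uterus, Foxd1 at 0 counts there. The part of each cell type in the level of the factors was not tested.

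Library totals were 35394603 to 40254254 counts in uterus and 40115616 to 47790178 in brain. The labels held against marker genes: 5 neuronal markers summed to 7.98 to 10.9 CPM in uterus and 4942 to 5185 CPM in brain, and 5 uterine HOX genes to 711 to 843 CPM in uterus and 0 to 0.277 CPM in brain. No pair of libraries of an organ agreed within sampling noise, with chi-square values of 37.7 to 85.4 per degree of freedom in uterus and 15.4 to 49.97 in brain. The median log2 fold change of all genes moved to 0.268 when scaled by the upper quartile and to 0.269 when scaled by library totals, so a change of that size depends on the scaling. The 6 tested factors changed by at least 2.95 in size.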

How the data were processed

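Raw read counts per Ensembl gene were deposited by the authors for 8 libraries (4 uterus, 4 brain), with no normalization. Per the submitters' processing notes the tools were FastQC, HISAT2 2.0.3, featureCounts and edgeR, on GRCm38.p5. Annotation, strand setting and treatment of reads with several matches: not given in the sources used here. Per the labels' protocols the kit was stranded and ribosome-depleted. If counted without strand, reads of overlapping antisense genes would add to Hand2 (15.8% of its 50-base words lie in another gene, Hand2os1), Twist2 (45.7%, Gm29100), Nr2f2 (7.4%, mostly B130024G19Rik) and Nr2f1 (1.3%). Nr2f1 and Nr2f2 share 10 such words, and no other factors share any.

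Genes were filtered with filterByExpr by organ (16074 kept), scaled by TMM (factors 1.066 to 1.114 in uterus, 0.907 to 0.924 in brain) and tested in R 4.3.3 with the edgeR 4.0.16 quasi-likelihood test, and against 2-fold with glmTreat, with Benjamini-Hochberg adjustment over all genes tested. The SE is the unshrunken log2 fold change over the square root of F. Limits of 0 counts use 3 counts; they and the error of few counts cover counting error only. The procedure was also run on simulated counts. Few genes changed in these, all well counted and balanced in direction, unlike these organs, so that run does not test the scaling used here. Coordinates and exon lengths come from GENCODE M21, which held 19774 of the identifiers, and promoters from RefSeq. Alternatives were scaling by RLE, by the upper quartile or by totals alone, other filters, a block for replicate number, DESeq2 1.42.0, limma-voom (limma 3.58.1), a threshold of 0.01 and leaving out each library. Per the labels' protocols each organ came from 4 mice.

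The 7 factors and the 18 other lists were chosen with earlier results of these data known. Genes named beside the factors are, per list, the 3 called genes of at least 1 CPM with the largest change and up to 2 that went the other way, plus the 2 most alike genes per factor. Msc, Ptf1a, Ferd3l, Tcf4, Tcf12, Zfpm2, Bmp2, Fgf9, Fgf18, Snai2, Foxc1, Crabp2, Cdx2, Pou5f1, Nanog, Htr3a and Sp8 fall outside that rule and were chosen after their values were seen.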

Additional observations from a re-analysis of the deposited data

Results flagged for a closer look

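Among the 190 groups of 4 libraries checked for the 7 factors and the other named genes, 28 held a library far from the other 3. Chance flags about 1 in 20 for normally distributed values, a rate that does not apply to all of these groups. Where the other 3 libraries were at 0, any count was flagged. Msc, Zfpm2, Fgf9, Snai2 and Cdx2, flagged here, were named after their values were seen. Of the 7 factors only Hand1 was among them, at 0.0473 CPM in brain library 4, from 2 counts, with 0 in the other 3 brain libraries. Uterus library 4 was the outlying one for Fgfr3 (8.69 CPM, the others 10.04 to 10.1), Ogn (185, the others 118 to 127), Fgf9 (2.52, the others 6.64 to 7.40), Snai2 (49.1, the others 31.8 to 34.2), Grhl2 (37.8, the others 25.7 to 27.5), Slc6a13 (1.07, the others 0.355 to 0.447) and Snap25 (1.38, the others 0.227 to 0.329). It was also the only uterus library with counts of Neurod1 (0.0699 CPM), Nr2e1 (0.163 CPM) and Slc22a6 (0.0932 CPM). Uterus library 2 was apart for Fgf2 (15.8, the others 20.7 to 21.2) and for Tspan1, one of the genes most like Tcf21 (22.9, the others 46.3 to 47.8). Uterus library 3 was apart for Msc (0.989, the others 2.52 to 2.77) and library 1 for Zfpm2 (4.30, the others 3.57 to 3.66). Olig1 had counts in uterus library 1 alone (0.0503 CPM).

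In brain, library 1 was apart for Olig1 (97.7 CPM), Nr2f6 (12.4 CPM), Gad1 (625 CPM) and Dnm1 (1070 CPM). Library 4 was apart for Col3a1 (8.96 CPM, the others 7.12 to 7.33), Cdh5 (17.7 CPM), Pax8 (0.355 CPM) and Upk3b (0.0473 CPM, the others at 0). Library 3 was apart for Slc32a1 (109.5 CPM), Hoxa9 (0.0693 CPM, the others at 0) and Cdx2 (0.0231 CPM, the others at 0), and library 2 for Osr2 (0.0461 CPM, the others at 0).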

How the results depend on the processing

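The 6 tested factors kept their direction and stayed past the threshold under all 17 alternatives, with adjusted p of at most 6.7e-06. The log2 fold changes ran from 3.52 to 3.92 for Twist1, 5.55 to 6.09 for Twist2, 7.19 to 7.60 for Tcf21, 2.91 to 3.21 for Nr2f2 and -3.84 to -3.47 for Nr2f1. Hand2 stayed higher in uterus, but its fitted value is no bound. Over the 96 tested genes that the naming rule or the text singles out, 1617 of 1632 values kept their call, 12 lost it (Wnt4, Tbx18 and Tcf4), 3 gained it (Msc) and none reversed. At a threshold of 0.01, Wnt4, Tbx18 and Tcf4 lost their calls. Deviations of libraries with the same number were hardly correlated between the organs (-0.05, 0, 0.08 and 0.07). This cannot show whether they came from the same mouse, since an animal need not deviate alike in both organs. With a block for replicate number, 6898 genes were higher and 6948 lower in uterus, against 6988 and 7001 without it, and of the 96 genes Tcf4 alone lost its call (0.16, edgeR adjusted p = 0.0524). The Nr2f1 to Nr2f2 difference ran from -6.77 to -6.60 when each library was left out. With the longest transcript as length, Nr2f2 made up 97.5% of the COUP-TF level in uterus and 27.7% in brain, and Twist2 55.0% and 20.4% of the TWIST level. Brain values of Twist2 and Tcf21 rest on 5 to 20 and 4 to 12 counts per library, and Hand1 was not measurable at this depth.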

Other observations

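Per 1000 CPM of the 7 summed stromal markers, Twist1 stood at 0.738, 0.842, 1.11 and 0.709 CPM in uterus and at 4.30, 4.11, 4.92 and 2.81 CPM in brain, so on this scale every brain library lay above every uterus library. Twist2 stood at 1.43 to 1.86 in uterus and 0.610 to 2.41 in brain, with overlapping ranges, and Tcf21 at 2.06 to 3.15 in uterus and 0.555 to 1.46 in brain. Nr2f2, higher in uterus by CPM, stood at 16.4 to 20.6 in uterus and 133 to 145 in brain on this scale, and Nr2f1 at 0.257 to 0.465 in uterus and 263 to 298 in brain. Hand2 stood at 4.84 to 7.997 in uterus and 0 in brain. Collagens make up most of the uterine marker sum, while in brain Pdgfra and Vim, at 63.8 and 62.8 CPM, make up most of it. The sums thus rest on different genes, and the scale gives no level per stromal cell. It was chosen after the data were seen, so these are descriptions without a test.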
